A study of Mus musculus with 51 samples.

Results

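The regions described here are distal H3K27ac peaks that astrogliogenic neural precursor cells (aNPC) shared with both astrocyte stages made from them, early astrocytes (eA) and late astrocytes (lA). A peak of the aNPC list on chromosomes 1 to 19 was taken when it overlapped a peak of the eA list and a peak of the lA list by at least 1 bp and its centre lay more than 1 kb from every start site of a protein-coding transcript. Of 79417 H3K27ac peaks in the aNPC list, 77553 lay on chromosomes 1 to 19 and 24272 met the rule, which was 31.3% of the latter and 39.1% (95% Wilson interval 38.8 to 39.5) of the 62017 distal peaks among them. The H3K27ac peak calls of the 3 stages chose these regions, so their H3K27ac values are given as a description and were not tested, while H3K4me1, the place of a region within or between genes and its DNA sequence were not used in the choice.

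Mouse embryonic stem cells from C57/BL-6 mice were turned into aNPC, which were grown in DMEM-F12 with N2, EGF and FGF-2 (day 0). The cells were then moved to DMEM with FBS and LIF for 1 day (eA) or 5 days (lA). Chromatin immunoprecipitation and sequencing (ChIP-seq) of H3K27ac and H3K4me1 was carried out on 2 samples per stage and mark, all of them cultures without siRNA, and the study merged both before peaks were called. The cells are cultures from stem cells and not brain tissue, and since the lists are of merged cultures, no spread between cultures could be given.

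The lists were first checked against marker genes. The progenitor genes Sox2, Nes, Pax6 and Fabp7 and the astrocyte genes Gfap and Slc1a3 had an H3K27ac peak within 1 kb of a coding start site in every stage. The astrocyte gene S100b had one in aNPC alone, and Aldh1l1 and Gja1 had none in any stage. The neuronal genes Tubb3 and Map2 had one in every stage and Rbfox3 in eA alone, whereas no stage had one at the markers of oligodendrocytes (Mbp, Mog, Sox10), pluripotent cells (Pou5f1, Nanog, Zfp42), microglia (Cx3cr1, Csf1r, Aif1), endothelium (Pecam1, Cdh5, Tek) or hepatocytes (Alb, Apoa1). What part other cell types in the cultures had in the regions was not tested.

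Enhancers are stretches of DNA, often far from the gene they act on, where transcription factors bind and help to switch that gene on. The nucleosomes beside an active enhancer carry acetylated lysine 27 of histone H3 (H3K27ac), and those beside an active or a merely primed enhancer carry monomethylated lysine 4 (H3K4me1), while active promoters carry H3K27ac with trimethylated lysine 4. The factors themselves bind between such nucleosomes, in stretches of more open DNA. In the glial lineage the nuclear factor I proteins (Nfia, Nfib and Nfix), Sox9 and the Fos and Jun dimers of AP-1 are among the factors known to act at enhancers.

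Many of the regions came in close pairs, and the short stretch of DNA between the members of a pair was rich in TTGGCA, which is one arm of the 2-armed site of nuclear factor I and is called the NF1 motif here. The whole site, TTGGC and GCCAA with 5 bases between them, was rare, with 1 of the 24272 summit windows holding it and 6 found in all gaps between paired regions. The 6 stretches below are examples at genes of the lists used here, picked for holding the motif, and so are no measure of how often it occurs. They were chosen after the data were seen, as the stretches of at most 300 bp with the most NF1 motifs among the 83 that lie between paired regions given to the same listed gene, of which 22 held at least 1, with 1 per gene and ties settled by the weaker of the 2 flanking peaks, highest −log10 q first. Capitals mark TTGGCA or its reverse complement TGCCAA, and the sequences are the plus strand of mm9, each running from the base after one region to the base before the next.
Nfia, chr4:97590451-97590686: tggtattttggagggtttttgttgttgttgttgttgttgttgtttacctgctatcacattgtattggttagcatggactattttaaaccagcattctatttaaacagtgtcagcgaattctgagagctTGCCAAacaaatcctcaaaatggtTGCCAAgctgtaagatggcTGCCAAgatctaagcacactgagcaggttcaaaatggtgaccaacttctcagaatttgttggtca
Nfib, chr4:82050282-82050399: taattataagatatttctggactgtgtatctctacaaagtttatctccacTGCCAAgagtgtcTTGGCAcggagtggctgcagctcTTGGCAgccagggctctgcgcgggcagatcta
Cnp, chr11:100450799-100450969: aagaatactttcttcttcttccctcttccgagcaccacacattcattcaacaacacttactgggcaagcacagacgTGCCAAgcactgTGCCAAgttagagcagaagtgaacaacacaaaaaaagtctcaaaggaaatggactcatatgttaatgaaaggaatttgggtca
Otx2, chr14:49330589-49330859: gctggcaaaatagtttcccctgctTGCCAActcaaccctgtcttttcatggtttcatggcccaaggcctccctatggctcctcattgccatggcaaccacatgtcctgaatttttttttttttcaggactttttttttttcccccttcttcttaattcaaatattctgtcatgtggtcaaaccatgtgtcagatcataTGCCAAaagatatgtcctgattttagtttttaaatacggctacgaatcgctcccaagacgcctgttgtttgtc
Etv5, chr16:22517811-22518106: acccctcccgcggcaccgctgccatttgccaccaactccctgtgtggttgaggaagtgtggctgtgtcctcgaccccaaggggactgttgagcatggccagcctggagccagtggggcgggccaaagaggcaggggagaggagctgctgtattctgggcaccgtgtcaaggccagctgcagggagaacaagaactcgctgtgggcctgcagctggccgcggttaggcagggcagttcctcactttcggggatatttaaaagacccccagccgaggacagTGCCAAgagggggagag
Notch1, chr2:26390294-26390430: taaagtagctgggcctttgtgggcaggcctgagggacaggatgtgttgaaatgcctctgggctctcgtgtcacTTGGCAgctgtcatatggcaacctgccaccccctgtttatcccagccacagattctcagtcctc

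The stretch at Nfia lies in an intron of that gene, 43759 bp from the nearest coding start site, between regions of 447 bp and 1182 bp, and holds 3 NF1 motifs together with 1 match to the Rfx motif GTTGCCA, whose reverse complement TGGCAAC can share letters with TTGGCA. The stretch at Nfib is 118 bp long, lies in an intron of Nfib 100871 bp from the nearest coding start site, and also holds 3. Nfia and Nfib both encode nuclear factor I proteins. The stretches at Cnp, a myelin enzyme gene, and Otx2, a homeodomain factor of the forebrain and midbrain, hold 2 each, and the one at Otx2 also holds 1 Rfx motif. The one at Etv5, an Ets factor downstream of FGF, lies in an intron of the neighbouring gene Dgkg between regions with a −log10 q of 189 and 135 in the aNPC list, and holds 1 NF1 motif, 2 E-boxes CAGCTG and 1 GC box GGGCGG. The one at Notch1, which encodes a receptor of cell contact signalling, lies between genes 18180 bp from the nearest coding start site and holds 1 NF1 motif, 1 Rfx motif and 1 E-box. The middle of the stretch was free of an H3K27ac peak in all 3 lists at Nfia, Nfib, Otx2 and Notch1, and lay under an eA peak at Cnp and Etv5.

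The next 4 sequences, picked by another rule than the stretches above, are the 200 bp around the aNPC summit, on the plus strand of mm9, at the region with the highest aNPC −log10 q of the leading gene of 3 lists and at the strongest region that lacked H3K4me1 in every stage. Capitals mark CpG dinucleotides, which are sparse in most of the genome and dense in CpG islands.
Nfib, chr4:81950438-81950637: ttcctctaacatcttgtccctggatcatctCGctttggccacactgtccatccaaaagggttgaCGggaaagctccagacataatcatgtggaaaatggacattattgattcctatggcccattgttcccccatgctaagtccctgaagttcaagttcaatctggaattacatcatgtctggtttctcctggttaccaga
Notch1, chr2:26389891-26390090: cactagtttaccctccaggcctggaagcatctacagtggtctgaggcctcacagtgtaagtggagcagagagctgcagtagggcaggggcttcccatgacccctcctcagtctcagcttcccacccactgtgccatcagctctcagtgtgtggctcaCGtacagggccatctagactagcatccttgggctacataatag
Sox2, chr3:34548250-34548449: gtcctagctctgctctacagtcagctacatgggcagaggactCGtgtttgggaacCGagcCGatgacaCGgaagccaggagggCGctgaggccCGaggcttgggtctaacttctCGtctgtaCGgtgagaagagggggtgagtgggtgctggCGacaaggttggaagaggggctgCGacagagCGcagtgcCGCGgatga
Zfp869, chr8:72240503-72240702: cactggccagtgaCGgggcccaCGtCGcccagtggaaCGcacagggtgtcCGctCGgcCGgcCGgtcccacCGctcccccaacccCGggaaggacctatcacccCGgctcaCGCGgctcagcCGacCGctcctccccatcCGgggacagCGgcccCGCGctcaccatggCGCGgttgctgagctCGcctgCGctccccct

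The window in the intron of Nfib holds 2 CpG at a GC content of 45%, and the window near Notch1 holds 1 CpG at 56.0%. The window beside Sox2, a factor that keeps neural progenitors multipotent, lies in an intron of the overlapping transcript Sox2ot at a distance of 577 bp from the Sox2 start, measured from the summit, and holds 13 CpG. The window 5980 bp upstream of Zfp869, in a stretch annotated as between genes, holds 23 CpG at a GC content of 74.5%. Of 8 motifs searched there (NF1, Rfx, E-box CAGCTG, Sox, POU, AP-1, Ets and GC box) none was found in the windows of Notch1, Sox2 and Zfp869, and the window of Nfib held 1 match to the Sox motif ACAATGG.

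The regions were broad, well-called peaks. Their median width was 585 bp (quartiles 352 and 925 bp), against 285 bp for the 26899 distal aNPC peaks without a peak in eA and lA, 412.5 bp for the 5782 shared with eA only, 329 bp for the 5064 shared with lA only and 797.5 bp for the 12802 promoter peaks of all stages. Their median −log10 q was 14.4, against 6.03 for the distal peaks of aNPC alone and 62.6 for the shared promoter peaks. Together the regions covered 17.1 Mb.

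Most regions had a single counterpart at each later stage. A single eA peak overlapped 21227 regions (87.5%) and a single lA peak 21050 (86.7%). The count runs from aNPC only, and neighbouring regions could share a later peak. Of the gaps of 60 to 600 bp between neighbouring regions, 50.4% had an eA peak over their middle and 40.7% an lA peak. The summit of the strongest overlapping peak was found at a median distance of 107.5 bp (eA) or 113 bp (lA), and within 200 bp for 68.6% and 67.3% of the regions. Ranked within each list by −log10 q, the regions had a median percentile of 61.2 in aNPC, 66.1 in eA and 67.2 in lA. Only 584 regions (2.41%) were in the top 10% of every list. The rank was within 25 percentile points of that in aNPC in both later stages for 47.2% of the regions, while 2303 regions stood more than 50 points higher in lA than in aNPC and 1103 more than 50 points lower. Being shared by all stages thus went with a wide range of standing within each list.

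The rule asks for little overlap, and 9668 of the 24272 regions remained when peaks had to overlap by 50% of each other. At least 100 bp were shared with each later list by 22937 regions, and the smaller of both overlaps was 20 bp or less in 220. Outside the rule, 182 distal peaks lay within 20 bp of a peak in each list that they did not overlap. The centre lay 1.0 to 1.1 kb from a coding start site in 186 regions, and 231 shared peaks with a centre 0.9 to 1.0 kb away were left out as promoter peaks.

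H3K4me1, which the rule did not use, covered nearly all of the regions at every stage. An H3K4me1 peak overlapped 23264 of the 24272 regions in aNPC (95.8%, interval 95.6 to 96.1), 23224 in eA (95.7%, 95.4 to 95.9) and 22800 in lA (93.9%, 93.6 to 94.2). Over all 77553 H3K27ac peaks of the aNPC list the shares were 82.2%, 79.5% and 72.2%. In all 3 stages together an H3K4me1 peak was present at 22097 regions (91.0%, 90.7 to 91.4), against 66.5% of all aNPC peaks, and in none of the stages at 437 regions (1.80%, 1.64 to 1.98), against 12.4%.

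The other classes of the same list had less. H3K4me1 was present at 68.3% of the distal peaks of aNPC alone in aNPC, 63.6% in eA and, last, 49.5% in lA. The regions exceeded them by 27.5 percentage points in aNPC (95% Newcombe interval 26.9 to 28.2), 32.1 in eA (31.5 to 32.7) and 44.5 in lA (43.8 to 45.1). Distal peaks shared with eA only had 91.7%, 91.1% and 83.8% and those shared with lA only 83.5%, 90.03% and 87.4%, in the order aNPC, eA and lA. The regions exceeded the first by 10.1 points in lA (9.11 to 11.1) and the second by 12.4 points in aNPC (11.3 to 13.4). Shared promoter peaks had 82.3%, 74.9% and 68.8%. Such intervals express counting error alone, since peaks are not replicates of a stage.

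**Figure D1:**
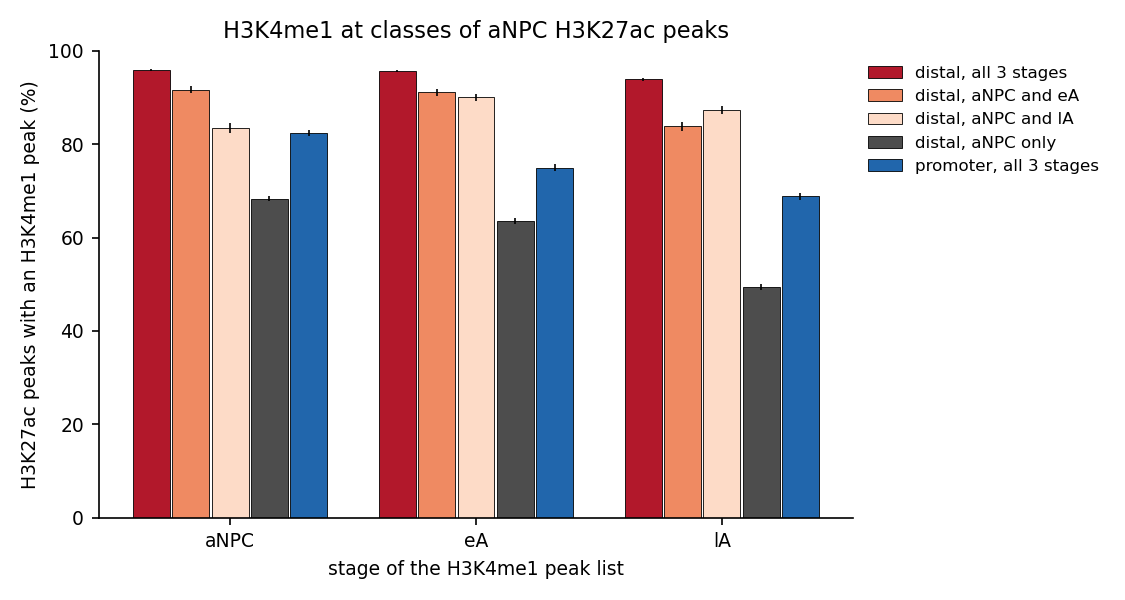
Percentage of aNPC H3K27ac peaks (y axis) that overlap an H3K4me1 peak of aNPC, eA or lA (x axis), for distal peaks of all 3 stages, distal peaks shared with 1 later stage, distal peaks of aNPC alone and promoter peaks of all 3 stages; bars are shares and lines are 95% Wilson intervals. The distal peaks of all 3 stages stand at 95.8%, 95.7% and 93.9%, above every other class in each stage, and those of aNPC alone at 68.3%, 63.6% and 49.5%.

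Wider peaks have more room to meet an H3K4me1 peak, so the classes were compared within bands of width. Among peaks under 300 bp, 91.5% of the regions and 57.6% of the aNPC-only peaks had H3K4me1 in aNPC, and 90.6% and 41.8% in lA. Among peaks of 1200 bp or more the shares were 98.4% and 90.1% in aNPC, and 97.3% and 71.9% in lA. Weighted to the widths of the regions, the difference was 16.3 points in aNPC (15.6 to 16.9), 20.6 in eA (19.8 to 21.3) and 34.7 in lA (33.7 to 35.6). Within bands of −log10 q it was 17.1, 21.8 and 36.1 points. The band with a −log10 q of at least 80 was the exception, where 93.4% of 1952 regions and 92.4% of 66 aNPC-only peaks had H3K4me1 in aNPC, a difference not detectable with so few peaks. In eA both shares were 92.4%, while in lA they were 91.1% and 68.2%. With the summit required to lie inside the H3K4me1 peak, the aNPC shares in that band were 79.6% and 87.9% (77.9 to 93.7), which is the opposite direction. The eA shares were then 78.2% and 78.8%.

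**Figure D2:**
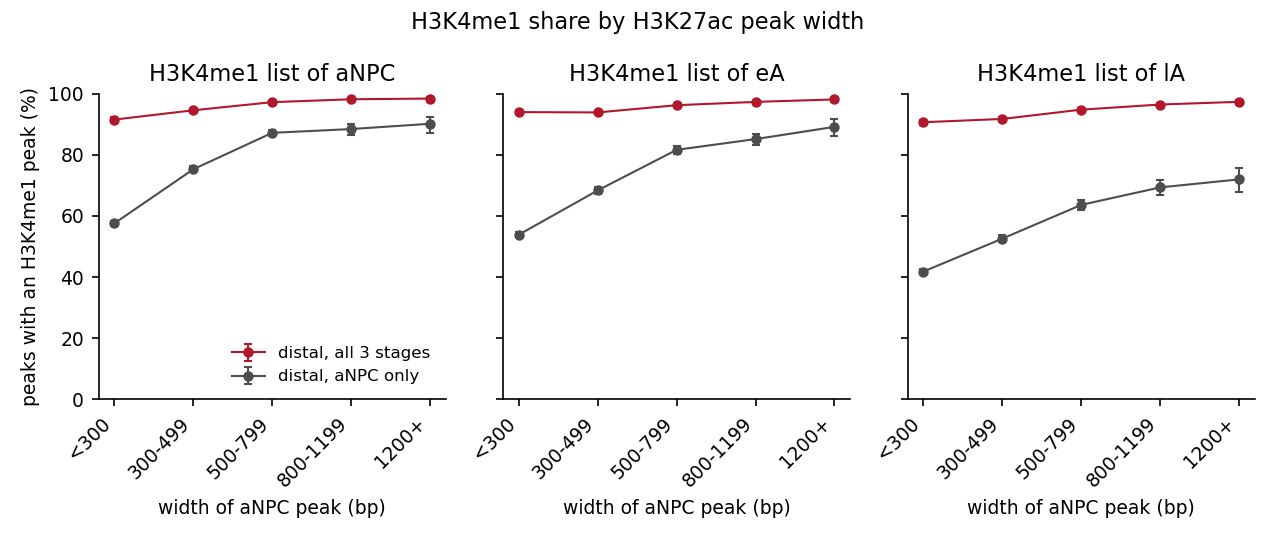
Percentage of peaks with an H3K4me1 peak (y axis) by width of the aNPC H3K27ac peak in bp (x axis), in the H3K4me1 lists of aNPC, eA and lA, for distal peaks of all 3 stages and distal peaks of aNPC alone; points are shares and bars are 95% Wilson intervals. The distal peaks of all 3 stages lie above those of aNPC alone in each band, from 91.5% against 57.6% under 300 bp to 98.4% against 90.1% at 1200 bp or more in the aNPC list.

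The mark was kept at most regions from stage to stage. Of the 23264 regions with H3K4me1 in aNPC, 97.8% also had it in eA (97.6 to 98.0) and 95.9% in lA (95.6 to 96.1). All 3 stages had it at 22097 of these 23264 regions. Over the whole aNPC list it was 51597 of 63774 H3K27ac peaks, and among aNPC-only peaks 11221 of 18373. Shares kept from stage to stage were not computed for other classes. The mark was present in aNPC and eA and absent in lA at 657 regions, present in aNPC alone at 299 and present in both astrocyte stages and absent in aNPC at 391. The strongest overlapping H3K4me1 peak had its summit at a median distance from the H3K27ac summit of 179 bp (aNPC), 183 bp (eA) and 193 bp (lA), and within 100 bp for 35.2%, 34.7% and 32.7% of the regions. These H3K4me1 peaks were wide, with a median of 1059 bp in aNPC against 472 bp over the whole list, and 45.3% of the regions with one in aNPC lay wholly inside it. The 2 marks thus covered the same places with their summits apart. With the stricter demand that the H3K27ac summit lie inside the H3K4me1 peak the shares were 89.9%, 89.4% and 84.5%, against 57.6%, 51.8% and 36.9% of the aNPC-only peaks.

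H3K4me1 was less frequent near start sites. Of the 999 regions 1 to 2 kb from a coding start site, 70.7% had it in every stage (67.8 to 73.4) and 11.0% in none (9.22 to 13.1). Of the 5121 regions more than 100 kb away, 92.9% had it in every stage (92.2 to 93.6) and 0.703% in none (0.508 to 0.972). From 5 kb outward the share in every stage was between 91.4% and 92.9%.

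The 437 regions without H3K4me1 at any stage differed from the rest in position and base composition. The 200 bp at their summit held a mean of 8.56 CpG at a median GC content of 53.0%, against 2.81 CpG and 49.0% in the 22097 regions with H3K4me1 at all stages. The GC box GGGCGG, a site of Sp and Klf factors, was in 16.2% of these windows (13.1 to 19.997), against 4.49% (4.22 to 4.77). A start site of any annotated transcript, non-coding ones included, lay within 1 kb of 81 of them (18.5%, 15.2 to 22.4), against 4.15% (3.90 to 4.41) of the regions with H3K4me1 at 1 stage or more. Their median distance to a coding start site was 8.88 kb, against 34.3 kb. Their median −log10 q was 28.0, against 14.3, and their median percentile in the aNPC list was 75.2, against 61.0, while their median width was 457 bp, against 588 bp.

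Most of the regions lay inside genes. The centre was in an intron in 12727 regions (52.4%, 51.8 to 53.1), in an exon in 1032 (4.25%, 4.01 to 4.51) and between genes in 10513 (43.3%, 42.7 to 43.9). Introns held 47.9% of the distal peaks of aNPC alone (47.3 to 48.5), 54.3% of those shared with eA only (53.0 to 55.5) and 47.4% of those shared with lA only (46.0 to 48.7). The median distance to the nearest coding start site was 33.8 kb, with 20.7% of the regions within 10 kb and 21.1% beyond 100 kb. The distal peaks of aNPC alone lay farther out, at a median of 50.4 kb with 32.8% beyond 100 kb. The median was 36.8 kb for peaks shared with eA only and 48.1 kb for those shared with lA only.

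Each region was then assigned to the gene whose coding start site was nearest when it lay inside a gene or within 50 kb of that site. This is a rule of proximity, and it does not show which gene a region acts on. It placed 19036 regions (78.4%) at 6670 genes, which were 31.3% of the 21281 protein-coding genes of these chromosomes. Of these genes 2584 had 1 region, and 236 had 10 or more. Long genes collected more, with a median length of 221 kb for genes with 10 or more regions against 15.6 kb for all coding genes.

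Long genes, several of them of neural and glial development, had the most regions. Zbtb20, which encodes a zinc finger repressor that promotes astrocyte formation, had 35 regions out of 65 distal aNPC peaks, and 34 of the 35 had H3K4me1 at every stage. Nfib had 30 of 59, with 26 of the 30 marked by H3K4me1 at every stage and 2 at none. Npas3, a bHLH-PAS factor of the brain, had 27, and Nckap5 and the phosphodiesterase gene Pde4b had 26 each. The corepressor gene Rere had 25, the ankyrin gene Ank2 had 24, and E130114P18Rik, whose annotation overlaps the start of Nfia, and the semaphorin gene Sema6d had 23 each. These genes spanned 209.9 kb (E130114P18Rik) to 917.2 kb (Nckap5). Among the genes named, the share of distal aNPC peaks that was common to all stages ran from 39.0% at Sema6d to 64.1% at Rere, against 41.6% over all distal peaks given a gene.

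Among transcription factor genes of neural progenitors, 14 of 19 had at least 1 region (73.7%, against 31.3% of all coding genes), with 82 regions in all out of 146 distal aNPC peaks (56.2%, against 41.6% over all distal peaks given a gene). Sox2 led with 14 regions out of 30 distal peaks. Gli3, a mediator of Hedgehog signals, and Meis2, a homeodomain partner of Pax6, had 9 each out of 12. Emx2, Lhx2, Nr2e1 and Zic1 were among those with none, and Nr2e1 and Zic1 had no distal aNPC peak at all. H3K4me1 at every stage was found at 60 of the 82 regions (73.2%, 62.7 to 81.6), below the 91.0% over all regions. The gap lay in part at the POU gene Pou3f3, where none of 5 regions had the mark at every stage, and at Sox2, where 9 of 14 had it and 2 lacked it in all stages.

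Among astroglial genes 13 of 20 had a region (65.0%, against 31.3% of all coding genes), with 110 regions out of 190 distal aNPC peaks (57.9%, against 41.6% over all distal peaks given a gene). Nfib (30) and Nfia (20) were followed by Sox9 (14), which specifies glial cells and whose 14 regions all had H3K4me1 at every stage. Over the list 94 of the 110 regions had it (85.5%, 77.7 to 90.8), below the 91.0% over all regions. The glutamate transporter gene Slc1a3 had 9 and Gfap, the gene of the astrocyte intermediate filament, had 1, which was its only distal aNPC peak. Within the lists the Gfap region moved from percentile 64.7 (aNPC) to 90.5 (eA) and 96.3 (lA). The 9 regions of Aldh1l1, a folate enzyme gene used as an astrocyte marker, had a median percentile of 52.8, 87.9 and 90.3 in the same order. Other genes of the list went the other way from aNPC to lA, such as S100b (79.8 to 45.7), Slc1a3 (79.8 to 66) and Nfib (72.6 to 60.8), and the median over the 110 regions of the list was 63.1 in aNPC and 66 in lA. Aldoc, Apoe, Clu, Gjb6, Glul and Mlc1 were among those with none.

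Signalling and growth genes also carried shared regions, and their counts are to be read against the 31.3% of coding genes with a region and the 41.6% of distal peaks given a gene. Of 16 Notch and Id genes 11 had one (41 of 82 distal peaks), led by Notch1 (13 of its 15 distal aNPC peaks), Notch2 (7) and the repressor gene Hey1 (4). Of 14 FGF and EGF signalling genes 11 had one (54 of 154 distal peaks, 35.1%), led by Etv5 (12), the EGF receptor gene Egfr (9) and the FGF receptor gene Fgfr2 (7). The 12 regions at Etv5 had a median percentile of 92.9 in aNPC and 42.0 in lA, whereas the 5 at Fgfr1 went from 77.0 to 96.8 and the 3 at Grb2 from 40.1 to 65.0. The 54 regions of this list had a median percentile of 75.7 in aNPC, 69.0 in eA and 55.9 in lA. All 24272 regions moved from 61.2 to 67.2, with later ranks taken from the strongest overlapping peak as above. The oligodendrocyte (67.2 to 41.7), radial glia (82.7 to 67.7), microglial (81.3 to 71.0) and endothelial lists (62.9 to 58.2) also had lower median percentiles in lA than in aNPC. Of 12 AP-1 genes 9 had one (31 of 47 distal peaks, 65.96%), led by Jun (11), Fos (5) and Fosb (4), and the median percentile of the 31 regions was 68.4 in aNPC and 73.3 in lA, with 75.3 and 73.3 at Jun and 68.4 and 94.1 at Fos. Of 16 actin and adhesion genes 11 had one (49 of 88 distal peaks, 55.7%), led by the vinculin gene Vcl (11), the myosin gene Myh9 (9) and the actinin gene Actn4 (7). Of 12 radial glia genes 9 had one (27 of 72 distal peaks, 37.5%), led by Ptprz1 (7), Tnc (7) and Nes (4), which encode a receptor phosphatase, a matrix protein and an intermediate filament of progenitors.

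Lists of genes of other cell types lay on both sides of the 31.3% of coding genes with a region. Of 14 neuronal genes 3 had one (14 of 48 distal peaks, 29.2%), Map2 (8, annotated as Mtap2), Gap43 (5) and Snap25 (1), and Tubb3, Rbfox3 and 9 others had none. Of 10 hepatocyte genes 2 had one (3 of 13 distal peaks, 23.1%), Ttr (2) and Ahsg (1). Of 8 microglial genes 3 had one (5 of 11 distal peaks, 45.5%), Csf1r (2), Ptprc (2) and P2ry12 (1), and of 12 pluripotency genes 4 (8 of 30 distal peaks, 26.7%), led by Tdgf1 (4), Esrrb (2) and Klf2 (1). Of 10 oligodendrocyte genes 6 had one (12 of 27 distal peaks, 44.4%), led by Mbp (4), Cnp (2) and Opalin (2), and of 8 endothelial genes 5 (10 of 36 distal peaks, 27.8%), led by Erg (3), Tek (3) and Cdh5 (2). Counting only regions within 20 kb of a start site, 4618 of the 21281 coding genes had one. The endothelial count was then 2 and the neuronal and hepatocyte counts 1 each, while the progenitor and astroglial counts were 11 each, Notch and Id and FGF and EGF 10 each, actin 9, AP-1 7, radial glia 6, oligodendrocyte 5, pluripotency 3 and microglial 2. Against a median length of 15.6 kb over all coding genes, the median was 68.4 kb in the endothelial list, 61.5 kb in the FGF and EGF list, 47.2 kb in the neuronal list, 29.0 kb in the actin list, 19.2 kb in the astroglial list and 18 kb in the radial glia list. It was 9.85 kb in the Notch and Id list, 9.39 kb in the AP-1 list, 8.79 kb in the hepatocyte list and 7.75 kb in the progenitor factor list. The part of gene length in these counts was not tested.

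**Figure D3:**
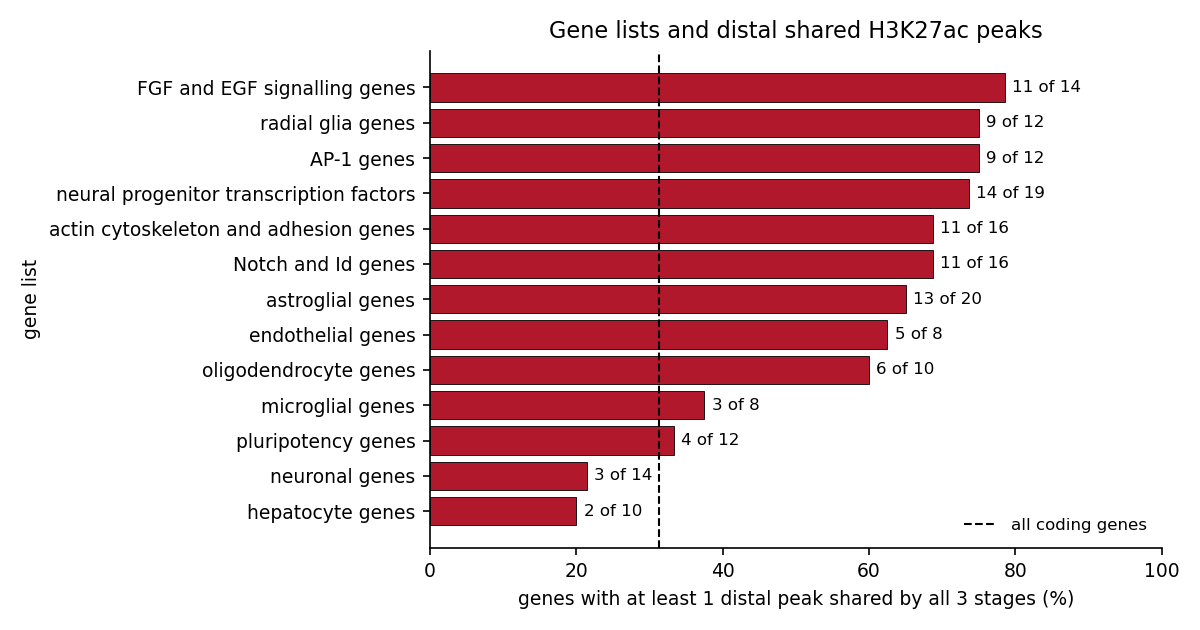
Gene lists (y axis) and the percentage of their genes with at least 1 distal H3K27ac peak shared by all 3 stages (x axis); numbers beside the bars are counts of genes, and the dashed line is the share over all coding genes of chromosomes 1 to 19 (31.3%). The lists of progenitor, glial, Notch, FGF and EGF, AP-1 and actin genes stand at 65.0% to 78.6%, endothelial and oligodendrocyte genes at 62.5% and 60%, and neuronal and hepatocyte genes at 21.4% and 20%.

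Motifs of transcription factors were then sought on both strands of mm9. In the 200 bp at the summit the shares in the regions and in the distal peaks of aNPC alone differed by less than 3 points for each motif named. The NF1 motif TTGGCA was in the 200 bp at the summit of 12.3% of the regions (11.9 to 12.7), 12.1% of the aNPC-only peaks and 11.1% of all aNPC peaks, and the difference between the first 2 was 0.208 points (−0.359 to 0.777). It was 2.50 points (1.70 to 3.30) in windows of 500 bp and 1.69 points (0.642 to 2.77) among peaks with a −log10 q of 5 to 10. Distal peaks shared with eA only held the NF1 motif in 13.5% (12.6 to 14.4) and those shared with lA only in 12.3% (11.4 to 13.2). The E-box CAGCTG, bound by bHLH factors, was in 12.9% of the regions and 12.2% of all peaks. The AP-1 site TGACTCA was in 4.17% and 3.63%, the Sox motif ACAATGG in 2.97% and 2.69%, the Rfx motif GTTGCCA in 2.65% and 2.25%, and the octamer ATGCAAAT of POU factors in 0.956% and 0.910%. The Ets motif CAGGAAGT was less frequent in the regions than in the aNPC-only peaks, at 1.90% against 2.78% (difference −0.877 points, −1.14 to −0.616), with 2.07% over all peaks. Peaks shared with eA only (2.16%, 1.82 to 2.57) and with lA only (2.01%, 1.66 to 2.44) lay near the regions. The GC box was in 4.89% of the regions, 2.34% of the aNPC-only peaks (difference 2.55 points, 2.23 to 2.88) and 9.39% of all peaks, which include CpG-rich promoters. The difference was 0.733 points (0.351 to 1.12) in windows of 45% to 55% GC and 1.28 points (0.760 to 1.84) at a −log10 q of 5 to 10. Peaks shared with eA only held the GC box in 4.15% (3.67 to 4.70) and those shared with lA only in 2.76% (2.35 to 3.25). Of 18 motifs, the interval of the difference left out 0 for 10 at 200 bp, for 13 at 500 bp and for 5 within windows of 45% to 55% GC.

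A summit of acetylation is not where the motifs were densest. From the summit outward the density of NF1 motifs in the regions was 0.620 per kb within 50 bp (0.589 to 0.652, exact Poisson interval), rose to 0.957 at 200 to 300 bp and 0.987 at 300 to 400 bp (0.959 to 1.02), and was 0.538 at 2 to 3 kb, close to the 0.551 per kb of the whole of chromosome 19. The aNPC-only peaks had the same shape with a lower rise, to 0.791 per kb at 300 to 400 bp (0.767 to 0.815). The E-box CAGCTG went from 0.641 to 0.830 per kb and the Rfx motif from 0.119 to 0.192 at 200 to 300 bp.

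The distances matched a feature of the peak lists. Of the 24253 gaps between neighbouring regions on a chromosome, 5789 were 60 to 600 bp long, with a median of 203 bp (quartiles 130 and 308 bp), and 10975 of the regions (45.2%) sat beside such a gap. Gaps of 600 to 800 bp numbered 204. No 2 neighbouring peaks of the aNPC list were closer than 51 bp. Among the aNPC-only peaks 37.3% sat beside such a gap, and gaps thinned out more slowly, with 475 of 600 to 800 bp. The middle of the gap was free of an H3K27ac peak in both eA and lA in 2392 of the 5789 pairs (41.3%, 40.1 to 42.6), and under a peak of eA in 50.4% and of lA in 40.7%. It lay under another aNPC peak in 26. H3K4me1 covered the middle in 62.1% of the pairs in aNPC, 52.7% in eA and 56.9% in lA, below its share at the summits of the regions. The pairs were chosen after the data were seen, and their limits of 60 and 600 bp rest on the plot of gap lengths.

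**Figure D4:**
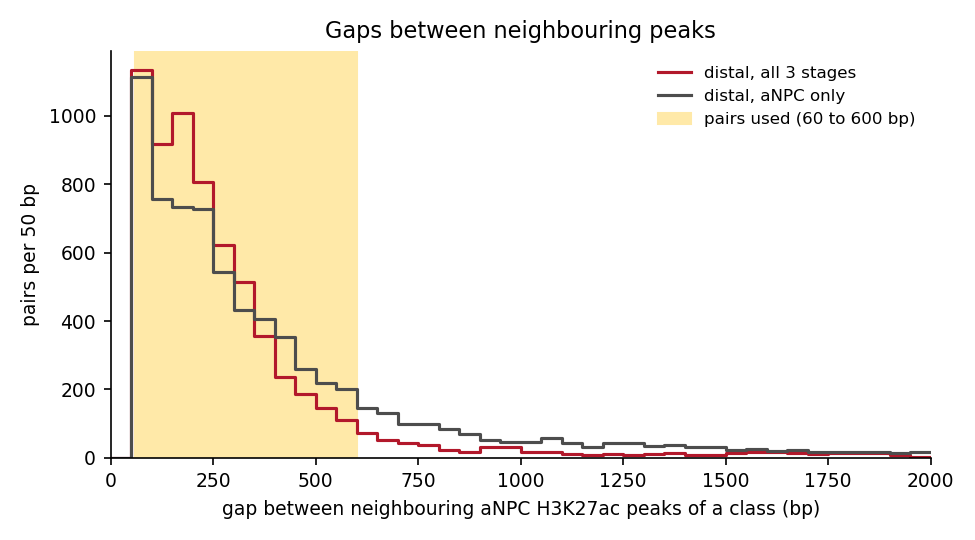
Number of neighbouring pairs per 50 bp (y axis) by the gap between 2 neighbouring aNPC H3K27ac peaks of a class in bp (x axis), for distal peaks of all 3 stages and distal peaks of aNPC alone; the shaded range marks the gaps used. Most gaps under 2000 bp fall within 60 to 600 bp, with a median of 203 bp for the distal peaks of all 3 stages.

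Between the paired regions several motifs were at their densest. NF1 motifs stood at 1.60 per kb in the gaps (1.54 to 1.67, 2145 sites in 1338 kb), 0.699 per kb in the paired regions themselves (0.679 to 0.719) and 0.607 per kb in stretches of the same length just outside the pair (0.576 to 0.640). The gap thus held 2.29 times the density of the flanking regions (interval 2.18 to 2.42) and 2.64 times that outside (2.47 to 2.82). An NF1 motif was present in 1704 of the 5789 gaps (29.4%, 28.3 to 30.6), against 1240 of the 5470 gaps between aNPC-only peaks (22.7%, 21.6 to 23.8). The ratio of gap to flanking regions was 2.39 for the Rfx motif (2.13 to 2.68), 2.15 for the POU octamer (1.79 to 2.57), 2.07 for the GC box (1.90 to 2.26, but 1.15 with an interval of 0.978 to 1.36 when limited to 45% to 55% GC), 1.81 for the E-box CAGCTG (1.71 to 1.91), 1.66 for the AP-1 site (1.5 to 1.84) and 1.53 for the Sox motif (1.34 to 1.73). It was 1.03 for the Runx motif TGTGGTT (0.914 to 1.17), 1.1 for the Tead motif GGAATGT (0.960 to 1.26) and 1.11 for the Fox motif TGTTTAC (0.959 to 1.29), whose intervals hold 1. These 3 were in 4.31%, 3.47% and 2.84% of the regions' summit windows and in 4.45%, 2.99% and 2.81% of those of aNPC-only peaks. Against the stretches outside the pair the ratio was 3.04 for the GC box at any GC content, 2.52 for the E-box CAGCTG and 2.47 for the Rfx motif. It was 2.02 for the AP-1 site, 1.79 for the POU octamer (1.45 to 2.22) and 1.67 for the Sox motif. For Tead it was 1.24 (1.05 to 1.45), which leaves out 1. The intervals for Runx (0.906, 0.789 to 1.04) and Fox (1.03, 0.871 to 1.22) held 1. The octamer was sparser in the paired regions (0.0596 per kb) than outside (0.0713). GC content was close, at 48.4% in the gaps and 47.8% in the flanking regions, and 44.6% outside.

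**Figure D5:**
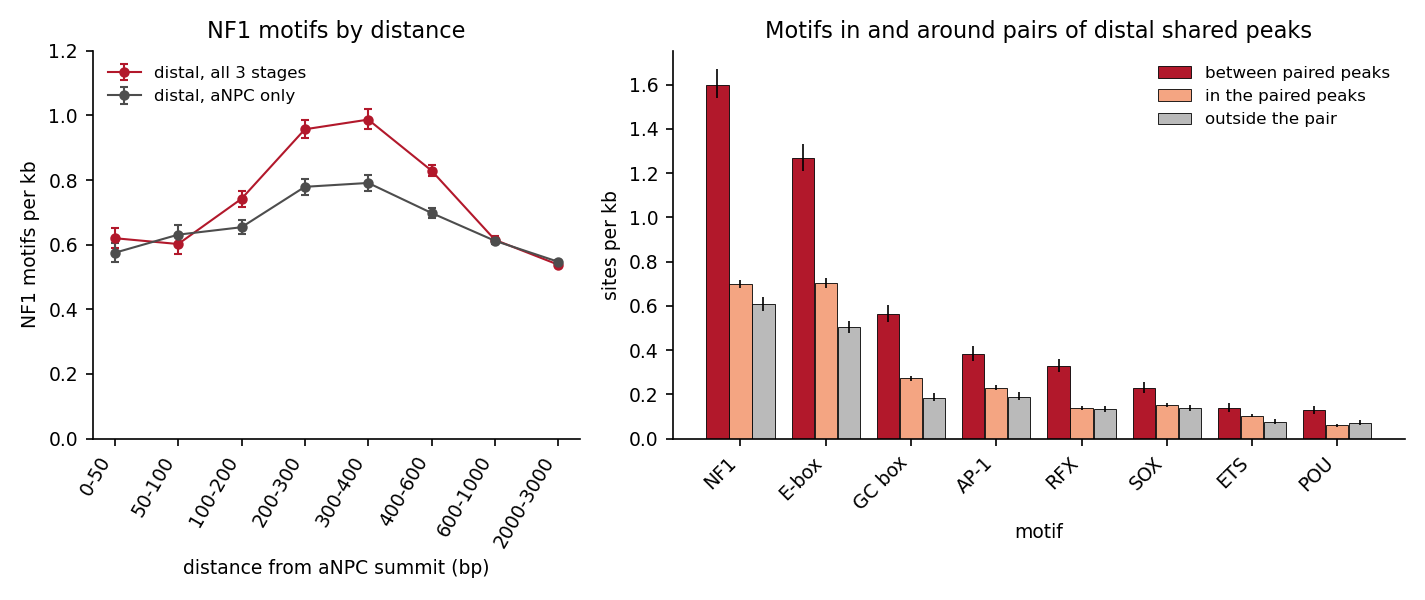
Left, NF1 motifs TTGGCA per kb (y axis) by distance from the aNPC summit in bp (x axis, bins of unequal width), for distal peaks of all 3 stages and distal peaks of aNPC alone. Right, sites per kb (y axis) of 8 motifs (x axis) between paired distal peaks of all 3 stages, in the paired peaks and in stretches of the same length outside; bars and points carry 95% exact Poisson intervals. NF1 motifs reach 0.987 per kb at 300 to 400 bp from the summit and 1.60 per kb between paired peaks.

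Pairs of aNPC-only peaks had lower ratios for NF1 and some other motifs, and higher ones for others. Between them NF1 motifs stood at 1.07 per kb (1.02 to 1.13), which was 1.59 times the density of the flanking peaks (1.49 to 1.69), at a GC content of 43.9%. The interval of this ratio does not meet the 2.18 to 2.42 of the shared regions. The same held for the Rfx motif (1.34, 1.14 to 1.57), the AP-1 site (1.01, 0.875 to 1.16) and the Sox motif (1.09, 0.938 to 1.26), whereas the ratios for the POU octamer were 1.86 and 2.15 with intervals that overlap. For the E-box CAGCTG the ratio was 1.57 (1.48 to 1.68) between aNPC-only peaks and 1.81 between shared regions, which fell to 1.51 (1.42 to 1.61) with eA peaks and 1.55 (1.47 to 1.63) with lA peaks as the anchor. The CTCF consensus had the higher ratio between aNPC-only peaks, at 14.1 (6.57 to 30.1, from 39 sites in the gaps and 8 in the peaks) against 2.28 (1.36 to 3.83, from 21 and 45 sites). Measured against the stretches outside the pair, these CTCF ratios were 1.77 (1.14 to 2.77) and 1.16 (0.666 to 2). CTCF was sparse within the paired aNPC-only peaks, at 0.00199 per kb, against 0.028 in their gaps and 0.0158 outside. For the Ets motif the ratio was 1.5 (1.31 to 1.72) between aNPC-only peaks and 1.33 (1.13 to 1.56) between shared regions. Against the stretches outside the pair, these Ets ratios were 2.41 (2.02 to 2.86) and 1.82 (1.48 to 2.24). In the shared regions the NF1 ratio was 2.64 (2.47 to 2.83) when gaps and peaks were limited to 45% to 55% GC, and 2.77 (2.57 to 2.97) in the gaps free of an eA and lA peak. It was 2.28 when paired peaks of the eA list were used and 2.43 with those of the lA list. The pairs of shared regions and of aNPC-only peaks were not matched, and the median width of their peaks was 526 bp and 323 bp. Paired aNPC-only peaks had a GC content of 45.5%, above the 43.9% of their gaps. The ratio at 45% to 55% GC was computed for the shared regions alone. The part of width, −log10 q and GC content in the contrast was not tested. A match to these letters is a description of the sequence and does not show that a factor was bound.

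The strongest regions were unlike the rest. By aNPC −log10 q the first 5 were chr9:35112680-35113213 near Gm5614 (2095), chr6:103598948-103599372 in an intron of Chl1 (862), chr12:8647522-8648206 near Pum2 (675), chr12:3109866-3110192 more than 50 kb from any coding start site (657) and chr5:115939079-115940315 near Sirt4 (642). Those near Gm5614, in Chl1 and at chr12:3109866-3110192 were 327 to 534 bp wide. At these 3 the strongest overlapping H3K4me1 peak had its summit within 6 bp of the H3K27ac summit in every stage and a −log10 q of 606 to 3667, and the GC content of the summit window was 33% to 36.5%. Peaks were called without an input control, and the part of background reads in these 3 regions was not tested. The regions near Pum2 and Sirt4 held 19 and 20 CpG in 200 bp, and their H3K4me1 summits lay 526 bp and 1193 bp away in aNPC. In eA these distances were 622 bp and 2 bp, and in lA the region near Pum2 had no H3K4me1 peak and that near Sirt4 had one with its summit 1162 bp away.

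Single regions at the leading genes showed how standing changed from stage to stage. The region of Etv5 with the highest aNPC −log10 q stood at percentile 99.2 in aNPC, 81.4 in eA and 33.2 in lA. That of Ptprz1 stood at 93.3, 82.8 and 41.6, and that of Nfib at 96.7, 78.7 and 84.9. At Vcl the percentile was 85.5, 83.6 and 95.8, and at Jun, 108942 bp from the Jun start site in an exon of BC042782, it was 89.8, 90.7 and 91.4. The region near Zfp869 stood at 99.8 or above in every list and had no H3K4me1 peak at any stage. The order of these percentiles is a description, since both the regions and their genes were picked on aNPC values.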

How the data were processed

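H3K27ac and H3K4me1 ChIP-seq peak lists of aNPC, eA and lA were used, 6 in all. The authors aligned reads uniquely to mm9 with Bowtie, merged both replicates with SAMtools 0.1.19 and called peaks with MACS2 at default settings without input. The deposited fold is the enrichment at the summit over a local background (a ratio), and the deposited −log10 values used are those of the q-value. Both served only to rank, band or describe peaks of one list, since depth is unknown and may differ between lists. The deposited score was not used. The RNA-seq and knockdown files were not used here.

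Peaks on chromosomes 1 to 19 were annotated with GENCODE M1 (start sites of protein-coding transcripts) and read against the NCBI mm9 sequence with Python 3.11.15 and NumPy 2.4.6. Shares carry 95% Wilson intervals, differences Newcombe intervals and densities exact Poisson intervals, and ratios of densities a normal interval on the log scale. They cover counting error over peaks or sites only, and no p-values were computed. Neighbouring regions were counted as separate, though 45.2% of the regions sat beside a gap of 60 to 600 bp. The code was tested on simulated intervals and planted motifs. The regions, gene lists and motifs were chosen with earlier results of these data known. Genes named are the 10 with the most regions and, per list, the 3 with the most (ties by name) and those with none, of which a few are not reported here. Others named, such as Pou3f3, Aldh1l1, Slc1a3, S100b, Gfap, Fgfr1 and Grb2, were chosen after their values were seen. Of the listed genes, 1 progenitor gene (Sox1) was not matched to the annotation, and 3 were matched by older symbols. Regions named by position are the 5 with the highest aNPC −log10 q and the one with the highest value per leading gene. Stretches for printing were sought on all of these chromosomes but chromosome 18.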

Additional observations from a re-analysis of the deposited data

How the results depend on the processing

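No paired analysis was possible because each peak list merges both replicates, and for the same reason no replicate could be left out. The number of regions was 9668 when peaks had to overlap by 50% of each other, the one definition that moved it by over 1.5 times, and 18335 to 25049 under the other 7. Below, H3K4me1 shares are in the order aNPC, eA, lA and all stages. They were 89.9%, 89.4%, 84.5% and 78.5% with the summit inside the H3K4me1 peak, 93.0%, 92.3%, 89.1% and 85.0% over the 200 bp at the summit, and 94.6%, 94.1%, 91.9% and 87.9% with an H3K4me1 −log10 q of at least 5. With the same number of H3K4me1 peaks per list they were 94.7% in eA, 91.0% in lA and 88.2% in all. They were 96.5%, 96.7%, 95.1% and 92.3% for regions more than 5 kb from coding start sites, 96.2%, 96.1%, 94.3% and 91.4% with the start sites of all transcripts, and 95.5%, 95.15%, 93.2% and 90.4% with lA peaks as the anchor. With an H3K27ac −log10 q of at least 5 they were 96.3% in aNPC and 91.7% in all, with overlap by 50% 94.8% in eA and 93.4% in lA, and with the aNPC summit inside the other peaks 95.4% in eA. The other H3K4me1 shares were within the intervals of the report. The excess over aNPC-only peaks kept its direction, with an interval above 0, at every stage under each of 4 alternatives. With coding genes only, exons held 3.36%, introns 50.2% and the space between genes 46.4%. In windows of 500 bp the motif shares were 31.4% (NF1 motif), 7.23% (Rfx), 29.9% (E-box CAGCTG), 7.70% (Sox), 2.88% (POU), 11.6% (AP-1), 5.48% (Ets) and 11.7% (GC box). The difference from aNPC-only peaks turned direction for the E-box at 45% to 55% GC (−0.722 points) and for the POU octamer at a −log10 q of 5 to 10 (0.00394 points), and both intervals then held 0. For NF1 motifs its interval was above 0 at 500 bp (2.50 points) and at a −log10 q of 5 to 10 (1.69 points), and for the AP-1 site at 500 bp (2.33 points). It no longer left out 0 for the E-box at a −log10 q of 5 to 10 (0.212 points) or for the POU octamer at 45% to 55% GC (−0.0353 points). Of 18 motifs, 13 differed at 500 bp, 5 within the GC band and 5 within the q band. Counting only regions within 20 kb of a start site left 1 neuronal, 2 endothelial and 1 hepatocyte gene with a region, and 4618 of 21281 coding genes. The other lists fell by at most 1.5 times, as radial glia did from 9 to 6. The alternatives for pairs were chosen after the data were seen. The NF1 ratio stayed between 2.28 and 2.77, and the GC box ratio fell to 1.15 (0.978 to 1.36) at 45% to 55% GC. The cause of these shifts was not tested. Depth is unknown for merged lists, so a missing peak is not shown to be a missing mark.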

Other observations

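The X chromosome was left out by the rule. On it, 447 of 1300 distal aNPC H3K27ac peaks (34.4%, 95% Wilson interval 31.9 to 37.0) overlapped a peak of eA and of lA, and their median −log10 q (13.5) and width (567 bp) were near those of the autosomal regions (14.4 and 585 bp). H3K4me1 was present at 88.4% of them in aNPC, 85.5% in eA and 78.5% in lA. It was present in all stages at 326 (72.9%, 68.6 to 76.8), against 91.0% on chromosomes 1 to 19. The difference was 18.1 points (Newcombe interval 14.2 to 22.4) for all stages and 15.4 points (11.8 to 19.5) in lA. All 1815 X-linked H3K27ac peaks of the aNPC list had H3K4me1 at all stages in 47.5%, against 66.5% on the other chromosomes. The cause was not tested.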
